A study of Mus musculus with 12 samples.

Results

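Gprasp2, Zcchc12, Zwint, Tagln3, Fam107a and Rgcc are 6 of the 24346 genes in the deposited tables. They were picked from these data because their RNA was lower 12 than 7 weeks after an injection into the midbrain, so every comparison of 12 with 7 weeks given here describes them and tests nothing. A working name called all of them neuronal. The values within groups go with that name for Zcchc12, Zwint and Tagln3, and less closely for Gprasp2. These genes varied between libraries of the same group with pan-neuronal marker genes. With dopaminergic markers Gprasp2 had a correlation of only 0.05 within groups. Fam107a and Rgcc had correlations with the pan-neuronal markers of −0.15 and 0.18 within groups. Over all 12 libraries, where the difference between times is left in, these were 0.58 and 0.70. For Fam107a and Rgcc the name is not borne out by the values within groups. Which cells the RNA came from was not tested for any of the 6 genes.

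The mice were C57BL/6 and were injected in both nigrae with saline or with α-synuclein of the G51D form, which causes inherited Parkinson's disease, given as pre-formed fibrils (20 µg at 5 µg/µL). The study asked how dopaminergic neurons differ at 7 and at 12 weeks after the fibrils. Cells carrying the orange fluorescent protein hKO1, the study's mark of those neurons, were sorted from midbrain and their RNA was amplified with an ultra-low-input kit. The 4 groups, saline at 7 weeks, α-synuclein at 7 weeks, saline at 12 weeks and α-synuclein at 12 weeks, had 3 libraries each; what drives hKO1, whether a library is 1 animal or a pool, and whether replicates are separate animals are not given in the sources used here, so p-values measure the spread between these libraries, which may be technical.

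The 6 genes have unrelated products. Gprasp2 binds the cytoplasmic tails of G protein-coupled receptors and belongs to a family of X-linked sorting proteins whose founding member steers internalised receptors towards lysosomes. Zcchc12 is a zinc knuckle protein of the PNMA family, known as a coactivator that works with SMAD proteins in BMP signalling in the brain. Zwint is a kinetochore protein that brings ZW10 to dividing chromosomes, and was also isolated from brain as a partner of the synaptic vesicle fusion protein SNAP-25. Tagln3 is the neuronal member of the transgelin and calponin family, which binds actin. Fam107a, also called DRR1, bundles actin, is induced by stress and glucocorticoids, and is made by astrocytes and radial glia as well as neurons. Rgcc was described as a gene induced by complement activation and regulates cell cycle kinases.

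Libraries held 2506730 to 5533324 assigned fragments, and 17380 genes were tested. Replicate 2 of α-synuclein at 12 weeks had 17409 genes with a fragment against 19960 to 21135 elsewhere, and earlier results had set it and replicate 1 of that group apart, so values are also given without this pair. The sorted material held dopaminergic RNA and much RNA of other cells: 12 dopaminergic markers summed to 637 to 2686 CPM (read counts scaled to library size) over the libraries, 12 oligodendrocyte markers to 17331 to 46401 CPM and 12 endothelial markers to 9517 to 24877 CPM. Of these markers only Foxa2, among the dopaminergic ones, was at 0 in any library. With 12 against 7 weeks over both treatments, edgeR called 51 of the 17380 genes lower and 94 higher (adjusted p under 0.05). Among them 2 of 12 dopaminergic markers fell (Th and Slc18a2, list median −1.25) and 6 of 12 oligodendrocyte markers rose (median 0.86). Of 12 endothelial markers 1, Slc2a1, was called lower, but 12 of 12 had a negative difference, with a median of −0.29. That median was −0.60 in saline and −0.02 in α-synuclein. Among markers of other cells, 1 of 6 of oligodendrocyte precursors, Bcas1, rose, and none of 10 microglial (median log2 difference −0.82), 10 astrocyte (0.07), 8 pericyte and smooth muscle, 7 ependymal (2.46) or 3 erythroid ones was called. The microglial median was −0.0006 in saline and −1.54 in α-synuclein, where replicate 3 at 7 weeks summed to 590 CPM against 76 to 237 CPM elsewhere. Ependymal markers summed to 9.6 to 542 CPM in the 12-week libraries. In such bulk samples fewer cells of a type and less RNA per cell cannot be told apart.

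Promoter sequence is shown for the genes whose levels moved together within groups (Zcchc12, Zwint and Tagln3) and for Fam107a, which moved with other genes. All 6 genes matched RefSeq promoter windows on GRCm38.p6, which run from 250 bases before to 50 bases after a start site. Capitals mark the motifs found on either strand: the CCAAT box, the GC box GGGCGG and the cyclic AMP response element TGACGTCA, as read along the strand of the gene. The windows are chrX:36195654-36195953 (plus strand), chr10:72654596-72654895 (plus), chr16:45724482-45724781 (minus) and chr14:8309728-8310027 (minus).
Zcchc12: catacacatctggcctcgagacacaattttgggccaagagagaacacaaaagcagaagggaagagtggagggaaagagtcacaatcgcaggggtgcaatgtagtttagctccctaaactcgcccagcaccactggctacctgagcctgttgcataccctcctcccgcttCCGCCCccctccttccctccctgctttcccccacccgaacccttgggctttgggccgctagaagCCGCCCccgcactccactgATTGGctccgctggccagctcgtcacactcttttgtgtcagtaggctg
Zwint: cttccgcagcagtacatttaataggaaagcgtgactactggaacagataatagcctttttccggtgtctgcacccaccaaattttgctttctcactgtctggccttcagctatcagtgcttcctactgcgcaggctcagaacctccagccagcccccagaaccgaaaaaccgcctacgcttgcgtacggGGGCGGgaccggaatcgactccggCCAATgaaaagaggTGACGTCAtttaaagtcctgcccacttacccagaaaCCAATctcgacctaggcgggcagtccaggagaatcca
Tagln3: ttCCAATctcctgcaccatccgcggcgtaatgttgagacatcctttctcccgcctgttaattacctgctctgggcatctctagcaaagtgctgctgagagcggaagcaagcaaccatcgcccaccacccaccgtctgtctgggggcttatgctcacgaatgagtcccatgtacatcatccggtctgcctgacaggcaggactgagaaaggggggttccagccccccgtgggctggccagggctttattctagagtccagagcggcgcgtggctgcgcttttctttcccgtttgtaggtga
Fam107a: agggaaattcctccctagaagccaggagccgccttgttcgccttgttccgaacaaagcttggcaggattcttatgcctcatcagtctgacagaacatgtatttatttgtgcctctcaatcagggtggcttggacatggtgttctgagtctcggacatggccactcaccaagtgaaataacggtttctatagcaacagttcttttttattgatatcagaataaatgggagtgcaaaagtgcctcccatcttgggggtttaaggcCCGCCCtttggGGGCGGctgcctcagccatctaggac
Zwint alone of the 6 held TGACGTCA, 23 bases before its start site, a motif in 1.79% of 32851 such windows. CCAAT was in the windows of 3 of the 6 genes, beside 37.4% of all windows. Counted from the start site, it began at 2 in Zcchc12, at −37 and 13 in Zwint and at −248 in Tagln3, with no common position. GGGCGG was in 35.7% of all windows and in those of 5 of the 6 genes: Gprasp2 and Zcchc12 held 2 matches, Zwint 1, Rgcc 5 and Fam107a 2 in the window shown. Tagln3 had none. Neither TATAAA (13.6% of all windows) nor CACGTG (7.15%) was in a window of the 6, nor were the RE1 parts TTCAGCACC (0.371%) and GGACAGCG (1.26%) that the neuronal silencer REST reads together. The glucocorticoid response element in its palindromic form was in 0.00913% of all windows and in none of the 3 windows RefSeq has for Fam107a. GC content was 60.7% for Gprasp2, 58.3% for Zcchc12, 53.3% for Zwint, 57.3% for Tagln3, 49% for Fam107a in the window shown (49% and 64% in its other windows) and 66.7% for Rgcc, against a median of 52.7% over all windows. A match describes letters and does not show a bound site.

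Per transcript length, Rgcc and Zwint were among the most abundant RNAs of these libraries and Gprasp2 was of middling level. Mean deposited FPKM over the 12 libraries was 399 for Rgcc, above 98.8% of the genes tested, and 266 for Zwint, above 98.0%. Tagln3 had a mean of 88.7 FPKM, Fam107a 51.0, Zcchc12 32.0 and Gprasp2 12.2, the last above 64.9% of genes. The order of neighbours held in every library for 2 pairs: Zwint lay above Tagln3 and Zcchc12 above Gprasp2 in 12 of 12 libraries. The other pairs changed places in some libraries, Rgcc lying above Zwint in 10 of 12, Tagln3 above Fam107a in 10 and Fam107a above Zcchc12 in 9, so their order does not exceed the spread. The fewest assigned fragments behind a value were 43, for Gprasp2, and the most 3945, for Zwint.

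**Figure D1:**
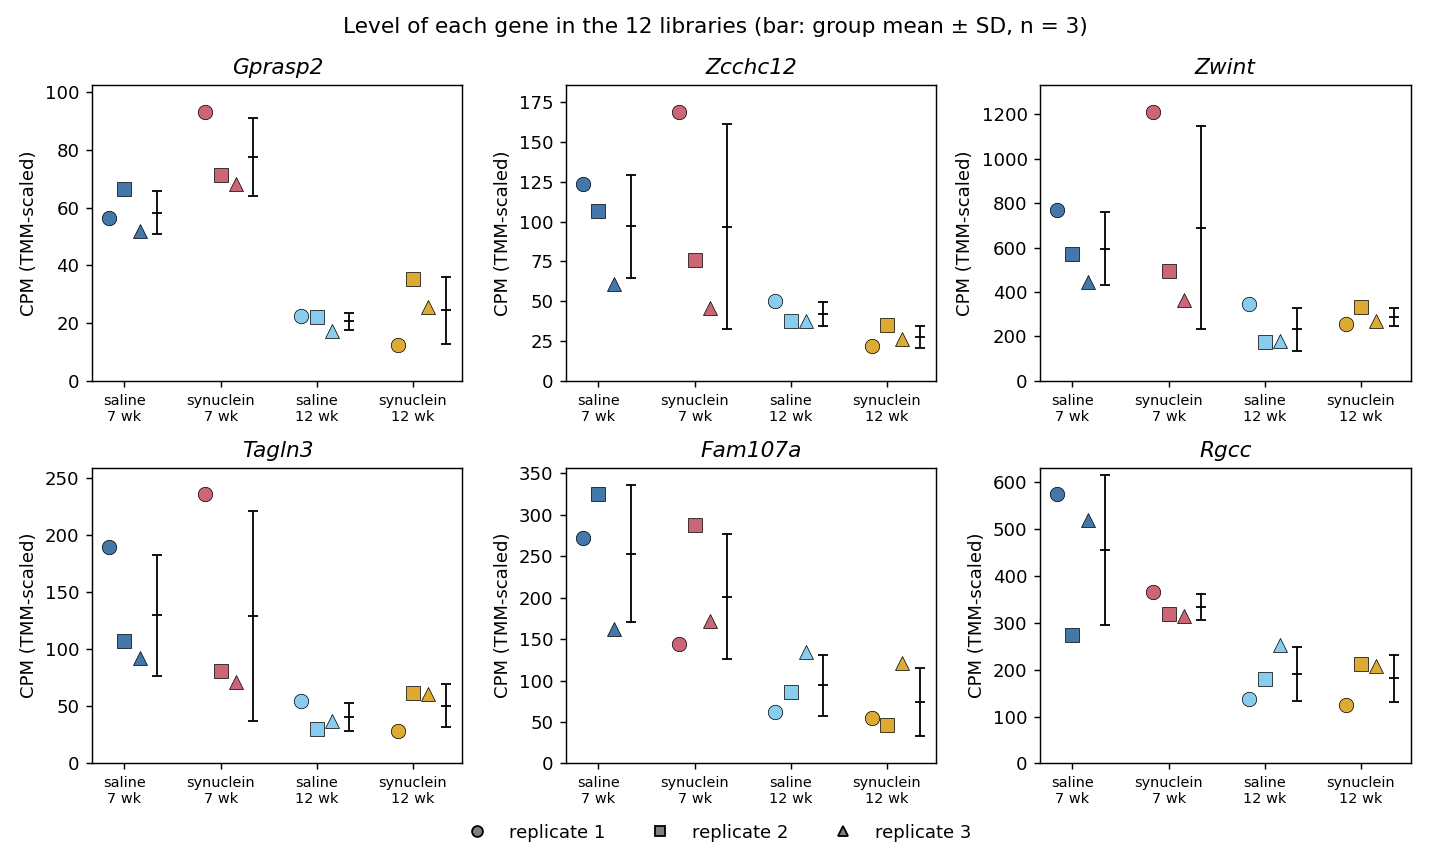
TMM-scaled CPM (vertical axis, from 0) of each gene in the 12 libraries, by group, with symbols for the replicate number and bars for the group mean ± SD (n = 3). Replicate 1 of α-synuclein at 7 weeks is highest for Gprasp2, Zcchc12, Zwint and Tagln3 (1211 CPM for Zwint), and the 12-week points lie below the 7-week points except for Zcchc12.

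All 6 genes were lower at 12 weeks, which is how they were chosen. Over both treatments edgeR called 0.293% of the genes tested lower at 12 weeks, and 6 of 6 are among them; in 5 of 6 every 12-week library lay below every 7-week library, which was so for 0.386% of genes. Within a treatment the 3 libraries of 12 weeks lay below the 3 of 7 weeks in 6 of 6 genes, against 7.83% of all genes in saline and 7.13% in α-synuclein. These counts follow from the choice of the genes and are not results about them.

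Gprasp2 (chromosome X, 135839034 to 135844730 in the deposited tables, read as mm10, plus strand), the receptor-sorting gene, stood at 56.4, 66.3 and 51.9 CPM in saline libraries 1 to 3 at 7 weeks and at 93.1, 71.3 and 68.3 CPM in the α-synuclein ones. At 12 weeks it stood at 22.6, 21.9 and 17.2 CPM after saline and at 12.4, 35.4 and 25.5 CPM after α-synuclein. No 12-week library reached a 7-week one. The log2 difference of 12 from 7 weeks was −1.50 ± 0.35 (SE) in saline and −1.66 ± 0.35 in α-synuclein. Its model overlaps Bhlhb9 on the same strand in GENCODE, and 472 of 4758 distinct 50-base words of its transcripts also occur in those of Bhlhb9 or Gprasp1, so its reads could have been split among these genes. Both neighbours had smaller differences over both treatments, −0.96 ± 0.31 for Bhlhb9 (edgeR adjusted p = 0.20) and −0.58 ± 0.26 for Gprasp1 (adjusted p = 0.45), whose locus in the tables is shared with other models, against −1.58 ± 0.25 for Gprasp2.

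The wider GPRASP and ARMCX family, mostly X-linked genes with armadillo-like repeats, had 1 of 10 members called lower over both treatments (Gprasp2 itself) and none called higher. Its median log2 difference was −0.49, beside −0.03 over all genes tested. Armcx4 was at −0.69 ± 0.35 and Armcx5 at −0.80 ± 0.42, while Armcx6 was at 0.34 ± 0.36 and Armc10 at 0.16 ± 0.24, none past the test. Armcx1, Armcx2 and Armcx3 lay between −0.39 and −0.33.

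Zcchc12 (chromosome X, 36195904 to 36199158, plus strand), the SMAD coactivator, stood at 123.6, 106.7 and 61.1 CPM after saline and at 168.9, 75.8 and 46.0 CPM after α-synuclein at 7 weeks. At 12 weeks it stood at 50.5, 37.6 and 37.3 CPM after saline and at 21.7, 35.4 and 26.1 CPM after α-synuclein. It is the gene of the 6 whose times overlapped when treatments were joined: the lowest 7-week library, α-synuclein replicate 3, was under saline replicate 1 of 12 weeks. The log2 difference was −1.22 ± 0.40 in saline and −1.80 ± 0.41 in α-synuclein, the second becoming −1.11 without replicate 1 of α-synuclein at 7 weeks.

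Of 9 genes of the PNMA and zinc knuckle family, 1 (Zcchc12) was called lower over both treatments, with a family median of −0.49. Zcchc18, its closest paralog, was at −0.94 ± 0.26 (edgeR adjusted p = 0.10) and Pnmal2 at −0.85 ± 0.25 (adjusted p = 0.15). Moap1 was at −0.49 ± 0.50, Pnmal1 at −0.54 ± 0.49, and Pnma2 at −0.18 ± 0.35. Pnma1, Pnma3 and Pnma5 had 2.13, 3.34 and 3.06 CPM on average and were at 0 in at least 1 library. None of 17 genes of BMP receptors, SMADs and ID targets was called in either direction, and their median was −0.24. The 2 most abundant, the BMP target genes Id3 and Id1, were at −0.24 ± 0.24 and −0.50 ± 0.24.

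Zwint (chromosome 10, 72654846 to 72674964, plus strand), the kinetochore and SNAP-25 partner, stood at 769.9, 572.8 and 443.7 CPM after saline and at 1211, 493.4 and 364.5 CPM after α-synuclein at 7 weeks. Its 12-week values were 345.4, 174.4 and 177.5 CPM after saline and 257.8, 332.9 and 269.2 CPM after α-synuclein. The times did not overlap, though the lowest 7-week library, α-synuclein replicate 3, lay close above saline replicate 1 of 12 weeks. The log2 difference was −1.36 ± 0.38 in saline and −1.27 ± 0.38 in α-synuclein, and the latter was −0.56 without replicate 1 of α-synuclein at 7 weeks. Of 4511 distinct 50-base words, 91 also occur in transcripts of the models Gm6332 and Gm8099.

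Most of its kinetochore partners were scarce in the same libraries. Zwint had a mean of 266 FPKM, while the median of the 16 other kinetochore genes was 2.67 FPKM and 10 of them lay under 5 FPKM. Zw10, its binding partner in dividing cells, had 9.98 FPKM, the spindle checkpoint kinase Bub1 0.758 FPKM and Ndc80, which grips microtubules, 1.88 FPKM. Nsl1 had the most of the others, 99.6 FPKM, followed by Bub3 (85.9 FPKM) and Spc24 (55.9 FPKM). In the comparison of times 1 of 17 kinetochore genes (Zwint) was called lower, with a median of −0.30. Nsl1, Bub3 and Spc24 were at −0.08 ± 0.20, −0.07 ± 0.18 and −0.18 ± 0.24 there. None of 12 mitotic cell cycle genes was called and their median was 0.13.

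Tagln3 (chromosome 16, 45711230 to 45724531, minus strand), the neuronal transgelin, stood at 190.0, 107.3 and 92.1 CPM after saline and at 236.0, 81.3 and 71.1 CPM after α-synuclein at 7 weeks. At 12 weeks it stood at 54.8, 30.5 and 37.0 CPM after saline and at 28.8, 62.3 and 61.2 CPM after α-synuclein. The times did not overlap. The log2 difference was −1.67 ± 0.44 in saline and −1.35 ± 0.43 in α-synuclein, and the latter was −0.56 without replicate 1 of α-synuclein at 7 weeks. No 50-base word of its transcript occurs in another gene.

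Of the 6 genes of the calponin and transgelin family, 1 (Tagln3) was called lower, with a median of −0.57. Tagln2, the widely expressed paralog, had a higher mean level (197 FPKM against 88.7 for Tagln3) and a log2 difference of −0.62 ± 0.22 (edgeR adjusted p = 0.27). The smooth muscle paralog Tagln ranged from 0.55 to 192 CPM, the highest value being replicate 3 of α-synuclein at 7 weeks, and was at −0.74 ± 0.83. Cnn3 was at 0.11 ± 0.15, Cnn2 at −0.22 ± 0.25 and Cnn1 at −0.53 ± 0.66.

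Fam107a (chromosome 14, 8296278 to 8309776, minus strand), the stress-induced actin gene, stood at 271.9, 324.5 and 162.7 CPM after saline and at 144.6, 287.3 and 171.7 CPM after α-synuclein at 7 weeks. The 12-week libraries had 62.6, 86.1 and 134.1 CPM after saline and 54.7, 46.6 and 121.6 CPM after α-synuclein. The times did not overlap, but replicate 3 of both 12-week groups lay near the lowest 7-week library. The log2 difference was −1.42 ± 0.38 in saline and −1.44 ± 0.38 in α-synuclein, the second being −0.72 without replicates 1 and 2 of α-synuclein at 12 weeks. In GENCODE the gene runs on to 8318023, past the end of the deposited model, so the first exon of transcripts that start at the distal promoter lies outside it. Its paralog Fam107b, at 7.99 FPKM against 51.0, was at 0.33 ± 0.35 (adjusted p = 0.87).

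Genes of the glucocorticoid response are listed here because glucocorticoids induce Fam107a. The list of 13 holds the receptors Nr3c1 and Nr3c2 as well as induced genes. Of 13, 1 was called lower with time, Tsc22d3 (GILZ, a mediator of glucocorticoid action), at −1.39 ± 0.29 (edgeR adjusted p = 0.038), and none was called higher. The list's median was −0.61, with 10 of 13 lower. The circadian gene Per1 was at −1.20 ± 0.34 (adjusted p = 0.13), the kinase Sgk1 at −1.09 ± 0.36 (adjusted p = 0.23) and the NF-κB inhibitor Nfkbia at −0.84 ± 0.20 (adjusted p = 0.058). The receptors themselves, Nr3c1 and Nr3c2, were at 0.09 ± 0.17 and −0.01 ± 0.26. Summed over the list, libraries held 1722 to 3470 CPM at 7 weeks and 1225 to 1821 CPM at 12 weeks.

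Rgcc (chromosome 14, 79288750 to 79301635, minus strand), the cell cycle regulator, stood at 574.4, 274.6 and 519.7 CPM after saline and at 365.3, 318.8 and 315.7 CPM after α-synuclein at 7 weeks. Its 12-week values were 138.6, 180.7 and 253.0 CPM after saline and 123.8, 212.8 and 207.7 CPM after α-synuclein. The times did not overlap. The log2 difference was −1.26 ± 0.30 in saline and −0.88 ± 0.30 in α-synuclein, the smallest of the 6 over both treatments at −1.07 ± 0.21.

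The comparison of α-synuclein with saline was not used to choose the genes, and no difference passed its test. Over all 17380 genes the share called by edgeR was 0% at 7 weeks, at 12 weeks and for the difference of the α-synuclein effect between the times. Before adjustment 285, 968 and 780 genes had edgeR p under 0.05 in these comparisons. With no effect at all, a share of about 0.05 of the 17380 genes would fall under that threshold. These counts are therefore not read as an effect of α-synuclein. DESeq2 called 0, 12 and 0 genes, and limma-voom 0 in each. None of the 6 genes was called by edgeR in any of the 3 comparisons.

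At 7 weeks Gprasp2 was at 77.6 ± 13.6 CPM after α-synuclein and 58.2 ± 7.37 CPM after saline (SD, n = 3). All 3 α-synuclein libraries lay above all 3 saline ones, a separation in either direction seen in 8.45% of genes, and the log2 fold was 0.41 with a 95% interval of −0.30 to 1.12. Zcchc12 and Tagln3 had folds of 0.00 with intervals of −0.82 to 0.81 and −0.89 to 0.88. Zwint was at 0.21 (−0.57 to 0.99), Fam107a at −0.33 (−1.12 to 0.46) and Rgcc at −0.45 (−1.07 to 0.17). In these 5 genes the groups overlapped, and edgeR's adjusted p was 1.0 for each of the 6. Differences between treatments inside these intervals are not excluded with 3 libraries a group. The intervals are not adjusted for the number of genes, as a call was, so they do not mark the smallest detectable difference.

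At 12 weeks Zcchc12 was the gene whose treatments separated. It was at 27.7 ± 6.98 CPM after α-synuclein and 41.8 ± 7.50 CPM after saline, each α-synuclein library lay below each saline one, as 10.7% of genes separated in one direction or the other, and the log2 fold was −0.59 (−1.43 to 0.25; edgeR adjusted p = 0.90). Without replicates 1 and 2 of α-synuclein it was −0.67. Tagln3 was at 0.32 (−0.59 to 1.23) and 0.60 without that pair, Zwint at 0.30 (−0.48 to 1.09) and 0.22, and Gprasp2 at 0.25 (−0.49 to 0.98) and 0.32. Fam107a was at −0.34 (−1.14 to 0.46) and turned to 0.38, and Rgcc at −0.07 (−0.69 to 0.55) turned to 0.13. Without the pair the group is 1 library, whose spread is taken from the other groups.

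The effect of α-synuclein did not pass the test of a difference between the times in any of the 6 genes. Zcchc12 had the lowest value, −0.59 with an interval of −1.76 to 0.58, and Rgcc the highest, 0.38 with an interval of −0.50 to 1.26. Tagln3 was at 0.32, Zwint at 0.09, Fam107a at −0.01 and Gprasp2 at −0.17. Their adjusted p ranged from 0.95 to 1.0 in edgeR. The related gene lists had no call in any of these 3 comparisons.

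**Figure D2:**
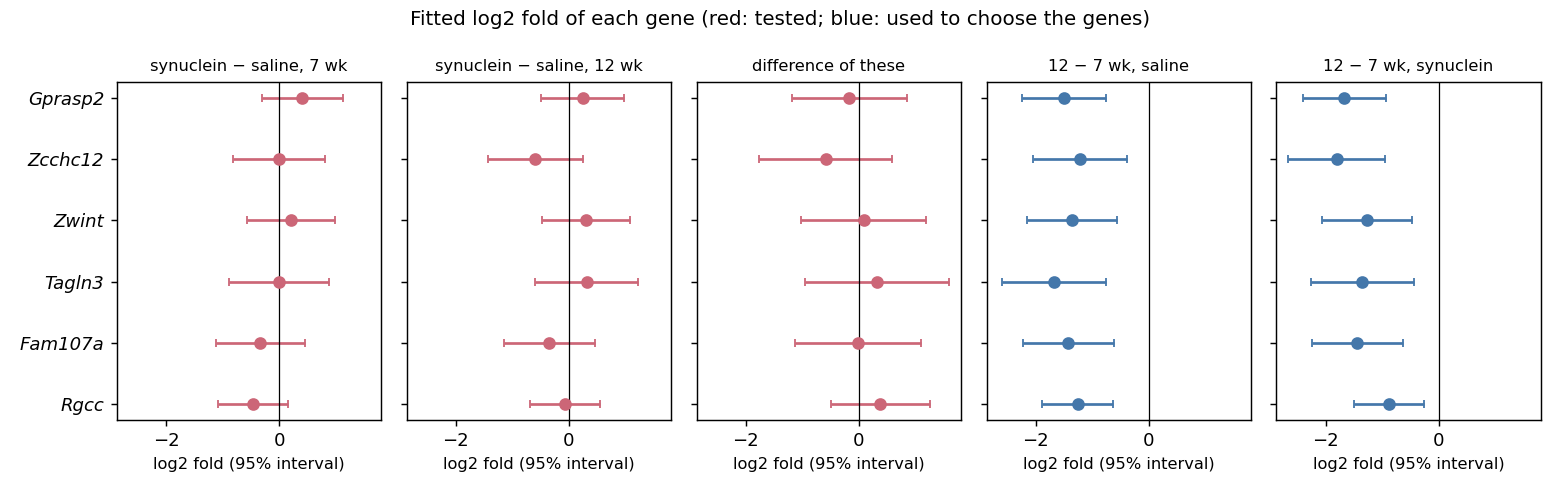
Fitted log2 folds (horizontal axis) with 95% intervals from standard errors worked back from edgeR's F statistic for the 6 genes in 5 comparisons over 12 libraries. Red intervals, for α-synuclein against saline and for the difference between times, all span 0 (Zcchc12 at 12 weeks: −1.43 to 0.25), while blue ones show the comparisons of time by which the genes were chosen.

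Between libraries of 1 group, 3 of the 6 genes kept step with neuronal RNA. With the group mean taken off each library, the correlation of log2 CPM with the mean of 20 pan-neuronal genes over the 12 libraries was 0.94 for Zcchc12, Zwint and Tagln3, 0.55 for Gprasp2, 0.18 for Rgcc and −0.15 for Fam107a. Spearman's rho was 0.93, 0.85, 0.97, 0.74, 0.29 and −0.06 in the same order of genes. Replicate 1 of α-synuclein at 7 weeks, where the 20 genes summed to 5228 CPM against 1691 to 3278 in the other 7-week libraries, stands apart in this: without it the correlation was 0.87 for Zcchc12, 0.86 for Zwint, 0.91 for Tagln3, 0.60 for Gprasp2, 0.12 for Rgcc and 0.21 for Fam107a. With 12 dopaminergic genes in place of the pan-neuronal ones, the correlation over all 12 libraries was 0.85 for Zwint, 0.73 for Zcchc12 and 0.61 for Tagln3. It was 0.05 for Gprasp2, −0.17 for Rgcc and −0.22 for Fam107a. These are descriptions over libraries that share 1 scaling, with no test.

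**Figure D3:**
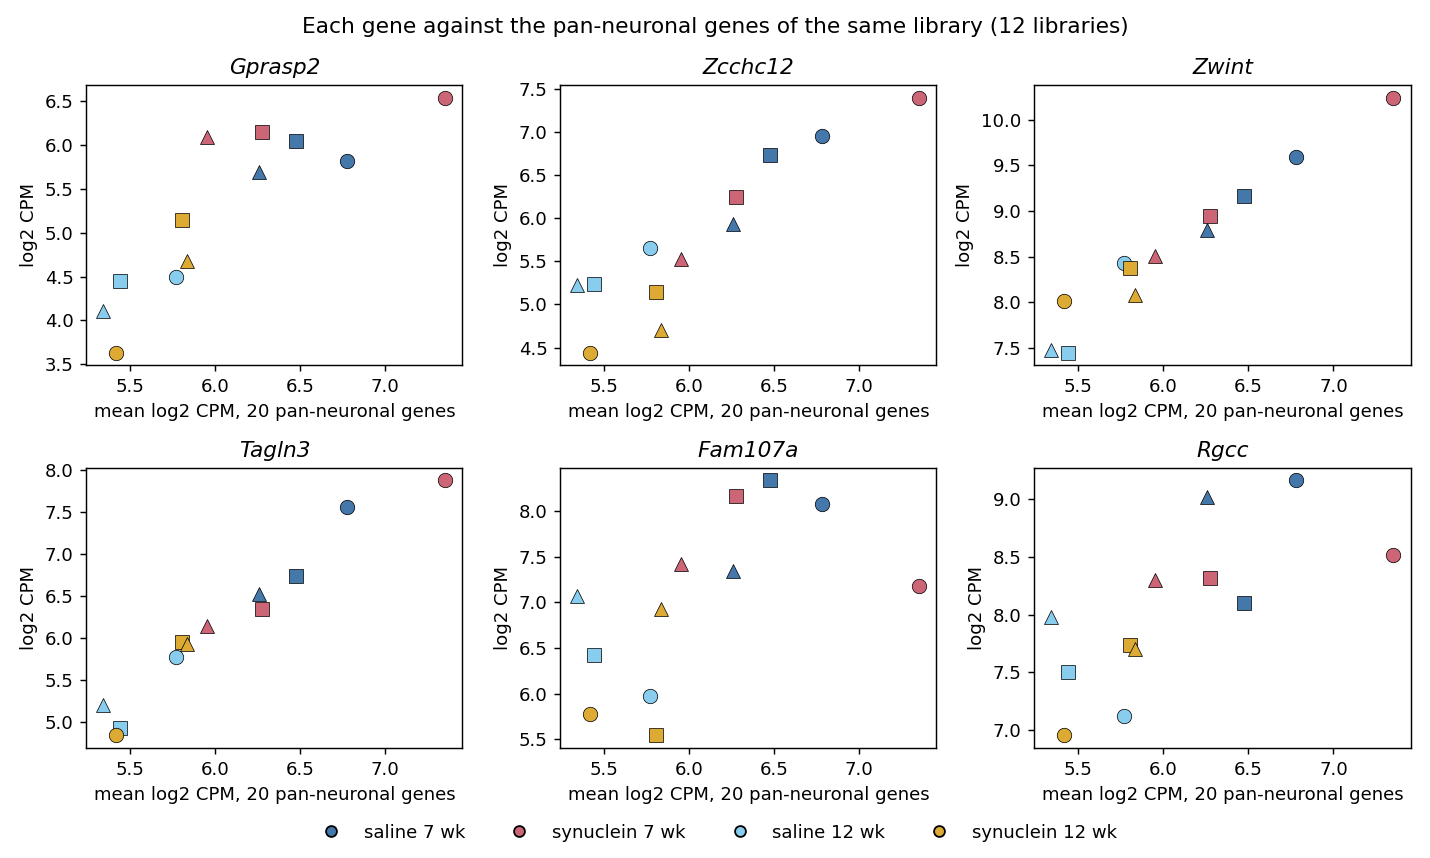
log2 CPM of each gene (vertical axis) against the mean log2 CPM of 20 pan-neuronal genes in the same library (horizontal axis), 1 point per library, coloured by group, with replicate 1 as circles, 2 as squares and 3 as triangles. Zcchc12, Zwint and Tagln3 lie along a line up to the library at 7.35 on the horizontal axis, where Fam107a and Rgcc are not at their highest.

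The pan-neuronal genes were themselves lower at 12 weeks: 4 of 20 fell (Snap25, Stmn2, Stmn3 and Scg2), 19 of 20 had a negative difference, and the median was −1.04 beside −0.03 over all genes. Their mean log2 CPM was 5.95 to 7.35 in the 7-week libraries and 5.35 to 5.84 in the 12-week ones, a difference of −0.91. Setting a gene against that mean in the same library takes the same −0.91 off its difference of 12 from 7 weeks. This shift was fixed in advance for every gene and is not a result about any of them. The difference went from −1.24 to −0.33 for Zwint, from −1.38 to −0.47 for Zcchc12 and from −1.41 to −0.50 for Tagln3. The spread within groups was not fixed by that shift. For these genes it shrank to an SD of 0.23, 0.23 and 0.30 from 0.57, 0.58 and 0.66. For Rgcc the difference went from −1.07 to −0.16 and for Fam107a from −1.47 to −0.55, but their spread grew, from 0.43 to 0.54 and from 0.59 to 0.77. Both relative differences depended on single libraries. Without replicate 1 of α-synuclein at 7 weeks they were −0.34 for Rgcc and −0.84 for Fam107a. At the other end Rgcc was at −0.02 without replicate 3 of saline at 7 weeks, and Fam107a at −0.37 without replicate 2 of α-synuclein at 12 weeks.

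Gprasp2 was at −0.70 on this relative scale, from −1.61, with an SD within groups of 0.40. On that scale 5 of 6 libraries at 12 weeks lay below the lowest of 7 weeks, the exception being replicate 2 of α-synuclein. Of the 5, replicate 2 of saline was only just below, at −0.950 against −0.946 in replicate 1 of saline at 7 weeks. The count was 4 for Tagln3, 3 for Zcchc12, 3 for Zwint, 1 for Fam107a and 0 for Rgcc. Relative to 12 dopaminergic genes, 2 of 6 libraries did so for Gprasp2, with an SD within groups of 0.78. These counts are in the comparison by which the genes were chosen, and the share over all genes is not given. Relative to the pan-neuronal mean Zcchc12 separated by treatment at 12 weeks, but not with the dopaminergic genes as the reference. Against the pan-neuronal mean its difference with time was −0.18 in saline and −0.77 in α-synuclein. Its 3 α-synuclein libraries at 12 weeks (−0.94, −0.64 and −1.10) lay below the 3 saline ones (−0.10, −0.19 and −0.10). This difference between treatments was not tested on the relative scale, and the share of all genes that separate there is not given. On the CPM scale 10.7% of genes separated by treatment at 12 weeks in one direction or the other. The separation is therefore not read as an effect of α-synuclein. With 12 dopaminergic genes as the reference the 12-week libraries overlapped. They were at −0.59, 0.73 and 0.17 after α-synuclein and at 0.12, 0.76 and 1.09 after saline. On that reference the differences with time were −0.57 for Gprasp2, −0.34 for Zcchc12, −0.19 for Zwint, −0.37 for Tagln3, −0.42 for Fam107a and −0.03 for Rgcc.

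**Figure D4:**
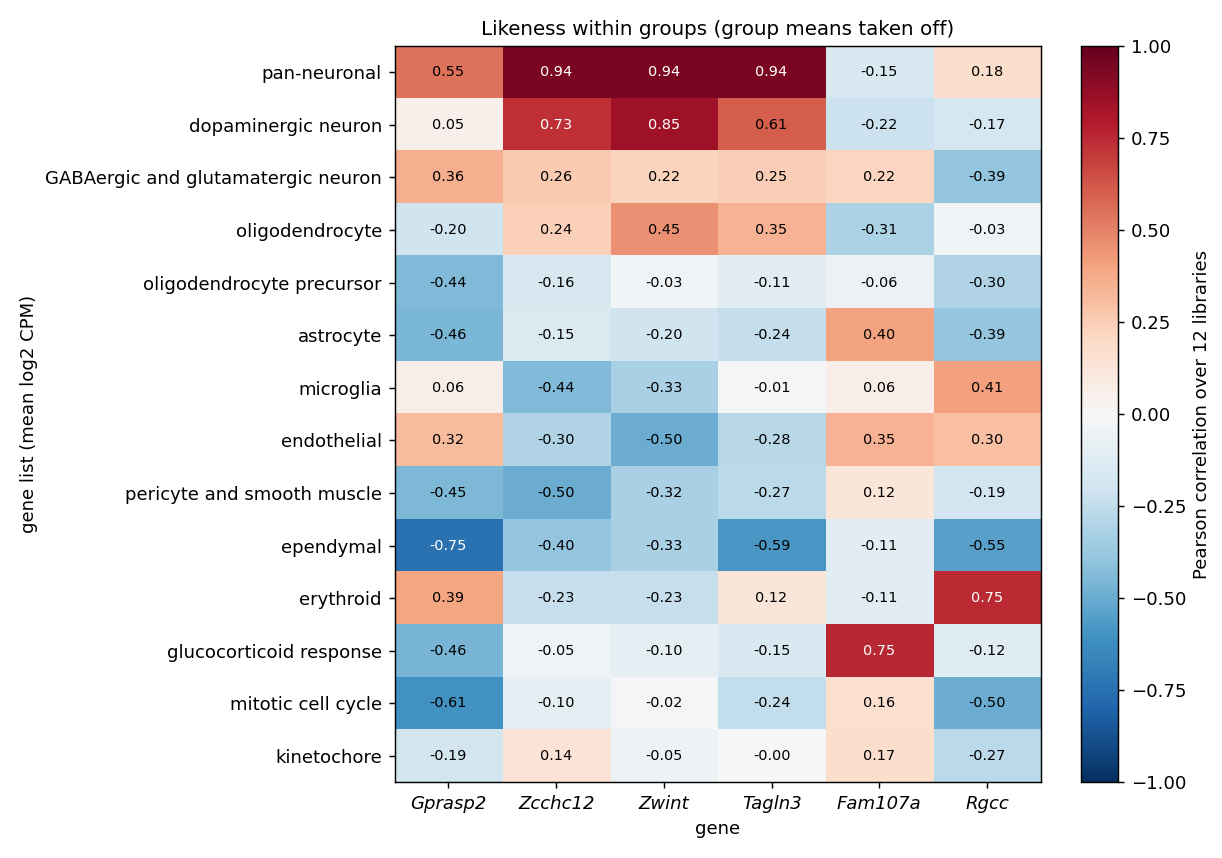
Pearson correlation of each gene's log2 CPM (columns) with the mean log2 CPM of a gene list (rows, the gene itself left out) over 12 libraries after the group means were taken off; colour runs from −1 to 1. The pan-neuronal row reads 0.94 for Zcchc12, Zwint and Tagln3, and among the lists drawn the highest cells of Fam107a and Rgcc are in the glucocorticoid (0.75) and erythroid (0.75) rows.

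Among themselves Zcchc12, Zwint and Tagln3 had correlations of 0.88 to 0.93 within groups, and Fam107a had −0.30 to 0.12 with the other 5. Fam107a had 0.75 with the glucocorticoid list (0.69 to 0.87 with each library left out), 0.69 with the list of BMP receptors, SMADs and ID targets and 0.40 with the astrocyte list. Rgcc was most like the erythroid list (Hba-a1, Hbb-bs and Alas2), at 0.75 (0.63 to 0.84), though at 0.05 when the difference between times is left in. Rgcc had 0.30 with the endothelial list and 0.41 with the microglial one. The part of other cell types in the levels of Fam107a and Rgcc was not tested.

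The single genes most like each of the 6 were sought among 10710 named genes of at least 10 CPM. Over all 12 libraries, where the difference between times adds to likeness, Zcchc12 was most like the dopamine-synthesis gene Th (0.96), followed by Cdk14 and Basp1. Zwint and Tagln3 were both most like Bex2 (0.98 and 0.97), followed by Shank1 and Eno2 for Zwint and by Stmn3 and Uchl1 for Tagln3. Gprasp2 was most like Ndrg4 (0.91), Ndn and Stmn3. Fam107a was most like Per1 (0.94), Sult1a1 and Atp2a2, and Rgcc like Ube2v1 (0.92), Hnrnpa0 and Mmd.

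With group means taken off, the ubiquitin hydrolase gene Uchl1, abundant in neurons, was most like Tagln3 (0.99), ahead of Snx10 and Pcsk1n. Syt4, a synaptotagmin, was most like Zcchc12 (0.97), ahead of Peg3os and Map1b, and Ahi1 was most like Zwint (0.96), ahead of Bex2 and Shank1. Gprasp2 had Chpf2 (0.96), Armc9 and Nsg2. Fam107a had Zap70 (0.96), Adamts14 and Tmem194, and Rgcc had Ap1b1 (0.97) and Acaca among its most alike genes. Bex2 and Shank1 were the genes on both lists of Zwint, and Uchl1 on both of Tagln3, while Gprasp2, Zcchc12, Fam107a and Rgcc had no gene on both. Each is the highest of 10710 values over 12 libraries and carries no test.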

How the data were processed

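RNA was measured by RNA-seq in 12 libraries. Per the submitters' processing notes the authors used TopHat2 2.0.13, Bowtie2 2.2.3 and Cufflinks 2.2.1; no source used here names a genome build, and file coordinates were read as mm10 and counted from 1. The authors deposited estimated counts and FPKM for 24346 genes. The deposited estimated counts are scaled: 98.8% to 98.9% of values were whole multiples of 1 step per library (tolerance 0.02 fragments), which gave the assigned fragments. Estimated counts were rounded and tested in edgeR 4.0.16 (R 4.3.3): filterByExpr left 17380 genes, TMM scaling, 1 mean per group, all 12 libraries, quasi-likelihood test, Benjamini-Hochberg adjustment over all genes, threshold 0.05. The common biological coefficient of variation was 46.6%, with 8 residual degrees of freedom. CPM is TMM-scaled; log2 CPM has a prior count of 2. The 6 genes and the 19 lists (193 of 194 entries found) were chosen with earlier results of these data known. The text names the 6 genes, their paralogs, from each other list the called genes (at most 4) or the 2 most abundant, and the 3 most alike genes, of which 1 is not reported here; Zw10, Bub1, Ndc80, Spc24, and Per1, Sgk1, Nfkbia, Nr3c1 and Nr3c2 were added after their values were seen. Alternatives were other scalings, filters and tools (limma 3.58.1, DESeq2 1.42.0), a replicate block, recovered fragments and libraries left out; leaving libraries out of the relative levels and correlations was chosen after seeing the data. The script was tested on simulated data. Same-numbered libraries were not paired.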

Additional observations from a re-analysis of the deposited data

How the results depend on the processing

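No alternative brought a call for any of the 6 genes in the comparisons of α-synuclein with saline or in their difference between times. The count of all genes called at 12 weeks was 12 with DESeq2 against 0 with edgeR, and the cause was not tested. With each library left out in turn, 0 to 1 genes were called at 7 weeks (1 without replicate 2 of saline at 7 weeks), 0 to 1 at 12 weeks (1 without replicate 2 of α-synuclein at 7 weeks) and 0 for the difference. The log2 differences of 12 from 7 weeks kept their sign in every setting for the 6 genes.

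Small α-synuclein effects changed sign. At 7 weeks, leaving out 1 library gave −0.67 to 0.32 for Zcchc12, −0.47 to 0.51 for Zwint and −0.76 to 0.37 for Tagln3, the lowest each time without replicate 1 of α-synuclein at 7 weeks. At 12 weeks it gave −0.087 to 0.62 for Gprasp2, −0.90 to 0.0067 for Fam107a and −0.25 to 0.20 for Rgcc. For the difference between times it gave −0.48 to 0.22 for Gprasp2, −0.88 to 0.11 for Zcchc12, −0.17 to 0.81 for Zwint, −0.018 to 1.12 for Tagln3 and −0.56 to 0.36 for Fam107a. Without replicates 1 and 2 of α-synuclein at 12 weeks, Fam107a turned to 0.38 at 12 weeks and to 0.71 for the difference, and Rgcc to 0.13 at 12 weeks. For Fam107a the difference was 0.024 with no filter on low counts and 0.049 with the replicate block, against −0.01; the cause was not tested. The correlation of Fam107a with the pan-neuronal genes was −0.32 to 0.21 with 1 library left out.

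Same-numbered libraries of different groups had correlations of their deviations of −0.06 to 0.11 over 18 pairs, 1 of them over 0.1, so the numbers were not taken to pair them. With the replicate block 0 genes were called in each of the 3 comparisons, as without it. With 3 libraries a group the median SE was 0.53 on the log2 scale at either time. Treatment differences inside the printed intervals are not excluded, and the smallest difference that a call could detect was not worked out.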
